A study of Homo sapiens with 9 samples.

Results

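Mitochondria and peroxisomes shorten fatty acids by β-oxidation, and the liver converts part of the resulting acetyl-CoA into ketone bodies. The 35 genes described here were listed by name as enzymes, carriers and regulators of this route, with earlier results of these data known. Rows with these symbols were taken from the 2 deposited count tables, and 34 of the 35 genes were found among the 12854 genes listed in both. *PDK4*, a kinase that inhibits pyruvate dehydrogenase and a common reporter of fatty acid use, was not analysed here. Of the genes that act on ketone bodies, only *ACAT1* belongs to the set, and other ketone body genes were read from a second list.

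RNA-seq was carried out on HepG2, an established human liver cancer cell line kept in low-glucose medium with serum. Stable lines carried a lentiviral vector from which doxycycline induces a short hairpin RNA: a control hairpin in sh-Con, or either of a pair of different hairpins against the lncRNA *TUG1* in sh1-*TUG1* and sh2-*TUG1*. Each group had 3 libraries, described as technical replicates, so the p-values below cover the spread between these libraries and may not cover the spread between cultures. Each hairpin is represented by 1 line, and since *TUG1* itself was not analysed here, no check of the labels on the targeted RNA was made.

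In the classical scheme, a long-chain fatty acid is bound by a carrier protein, joined to coenzyme A by an acyl-CoA synthetase and handed to carnitine to cross the inner mitochondrial membrane. There the cycle of dehydrogenation, hydration, second dehydrogenation and thiolytic cleavage removes acetyl-CoA units, and the electrons of the first step pass through the electron transfer flavoprotein to the respiratory chain. Very long and branched chains and bile acid side chains begin in the peroxisome, with oxidases in place of dehydrogenases, and the nuclear receptor PPARα switches on many genes of both routes in the fasting liver.

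The libraries held 33051617 to 39393293 counts, and libraries of a group differed by more than read sampling, with a chi-squared per degree of freedom of 6.57 to 23.2. The 34 genes together took 0.432% to 0.456% of the counts in sh-Con, 0.405% to 0.416% in sh1-*TUG1* and 0.360% to 0.381% in sh2-*TUG1*, and the smallest count of any of them in any library was 168. The sum of the 10 hepatocyte and HepG2 markers checked, *ALB* and *AFP* among them, was 34464 to 36289 CPM (counts scaled to the normalized size of the library) in sh-Con, 41568 to 43019 in sh1-*TUG1* and 45474 to 47525 in sh2-*TUG1*. *ALB* alone had means of 13505, 18457 and 25387 CPM, and single markers did not all follow the sum. Of the 10, 5 were called higher and 1 lower in sh1-*TUG1*, and 3 higher and 4 (*APOA1*, *TTR*, *SERPINA1* and *HNF4A*) lower in sh2-*TUG1*. All genes gave 12.5% higher and 12.3% lower in sh1-*TUG1*, and 21.6% higher and 21.9% lower in sh2-*TUG1*. Of 8 markers of other cell types, *VIM*, *PTPRC*, *COL1A1*, *COL1A2* and *CDH5* were not analysed here, and *PECAM1*, *ACTA2* and *CD68* summed to 102 to 119, 84.1 to 92.1 and 59.4 to 68.5 CPM. *CD68* alone fell in both lines, *ACTA2* rose in sh1-*TUG1* (0.27, adjusted p = 0.00822), and *PECAM1* was not called. The part of these shifts in the results below was not tested, and in bulk RNA a change in the share of cells and a change in RNA per cell cannot be told apart.

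In sh1-*TUG1*, the set changed by little and in both directions. Of the 34 genes, 10 rose and 6 fell against sh-Con at an adjusted p under 0.05 (edgeR quasi-likelihood test, Benjamini–Hochberg over all genes tested), while 12.5% of all 13017 genes were called higher and 12.3% lower. Only *CROT* also passed a fold change of 1.5, a size that 2.44% of all genes passed upward and 2.52% downward. The median log2 fold change of the set was 0.12, beside 0.0027 over all genes. All sh1-*TUG1* libraries lay above all sh-Con libraries for 16 of the 34 genes and below them for 6, compared with 21.3% and 20.2% of all genes. The number of rises changed when single libraries were left out: it was 6 without sh-Con replicate 2 and 6 without sh1-*TUG1* replicate 1. It was 4 without sh1-*TUG1* replicate 2 or replicate 3, while the falls stayed at 6 and were then the more numerous. Over all genes, the calls in either direction also went down, from 3232 to 2447, 2169, 2036 and 2081 in these settings, in that order.

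In sh2-*TUG1*, the set was mostly lower. Against the same sh-Con libraries, 4 genes rose and 17 fell, where 21.6% of all 12953 genes were called higher and 21.9% lower. Past the fold change of 1.5 were 2 that rose, *ACSL1* and *ETFDH*, and 5 that fell, *FABP1*, *ACAD11*, *HADH*, *ETFB* and *ACOX2*, while 4.35% of all genes passed it upward and 8.97% downward. The median log2 fold change was −0.21, beside −0.0048 over all genes. Libraries of sh2-*TUG1* were all above sh-Con for 7 genes and all below for 17, compared with 27.1% and 27.3% of all genes. Without sh2-*TUG1* replicate 2, the number of rises was 2, and the calls over all genes in either direction went from 5638 to 4509.

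The lines also differed from each other. In sh2-*TUG1* against sh1-*TUG1*, fitted over all 9 libraries, 5 of the 34 genes were higher and 19 lower, where 21.0% of all 12854 genes were called higher and 21.7% lower. No gene of the set was past 1.5-fold upward, where 2.56% of all genes were, and *FABP1*, *HADH*, *ECI2*, *DECR1*, *ACOX2* and *EHHADH* were past it downward, where 8.04% of all genes were. The median log2 difference was −0.23 for the set and −0.00067 for all genes, and the libraries of the lines did not overlap for 6 genes upward and 23 downward, beside 27.8% and 27.6% of all genes. When libraries were scaled by their totals alone, the genes past 1.5-fold became 10, and among all genes called the lower share moved from 50.8% to 64.9%.

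**Figure D1:**
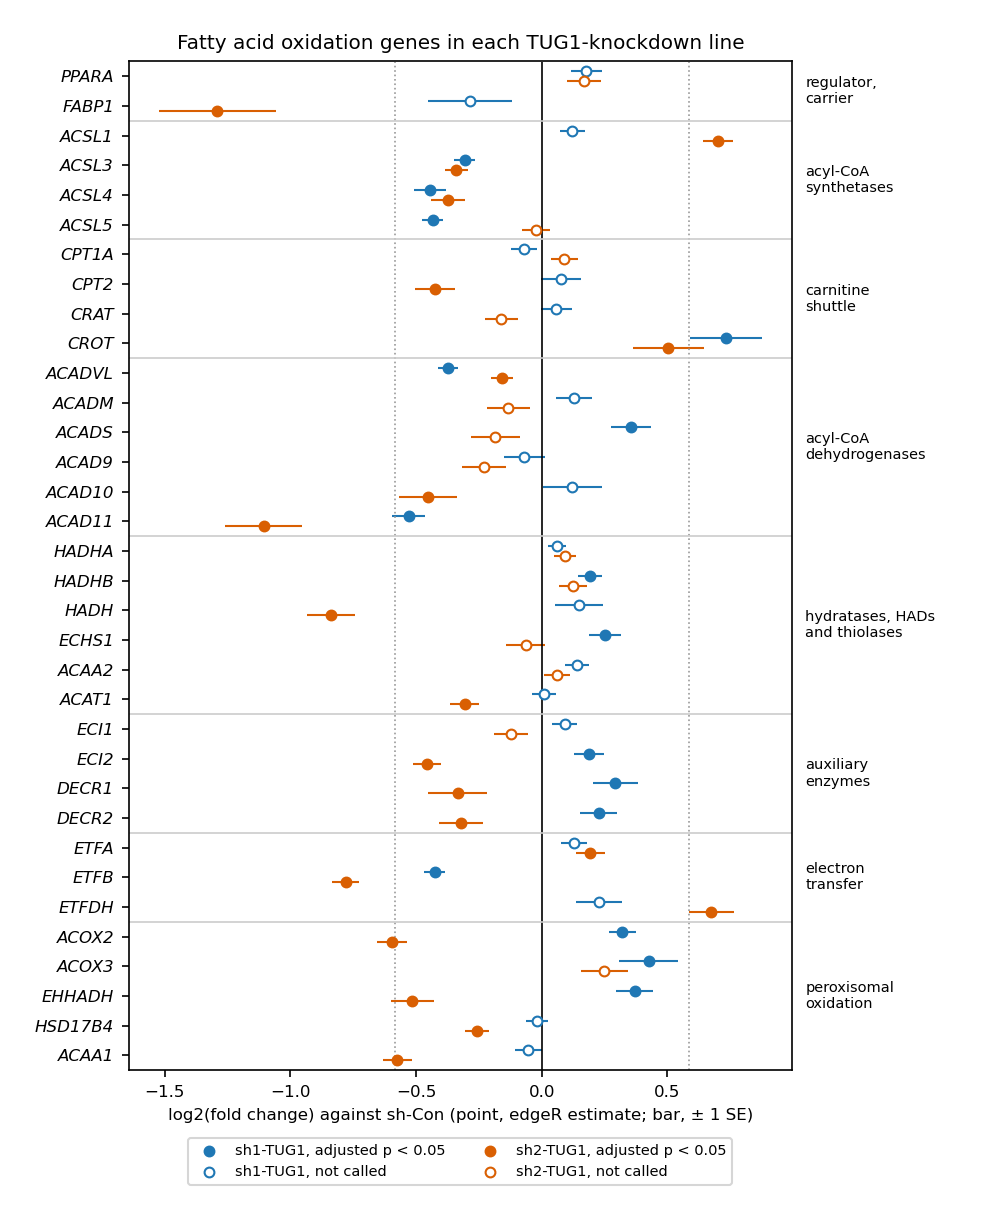
log2 fold change of each of the 34 genes against sh-Con, by role, for sh1-*TUG1* (blue) and sh2-*TUG1* (orange), with bars of ± 1 SE from the edgeR fit. Filled points have an adjusted p under 0.05 and dotted lines mark a fold change of 1.5, which *CROT* passes in sh1-*TUG1* and 7 genes pass in sh2-*TUG1*.

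**Figure D2:**
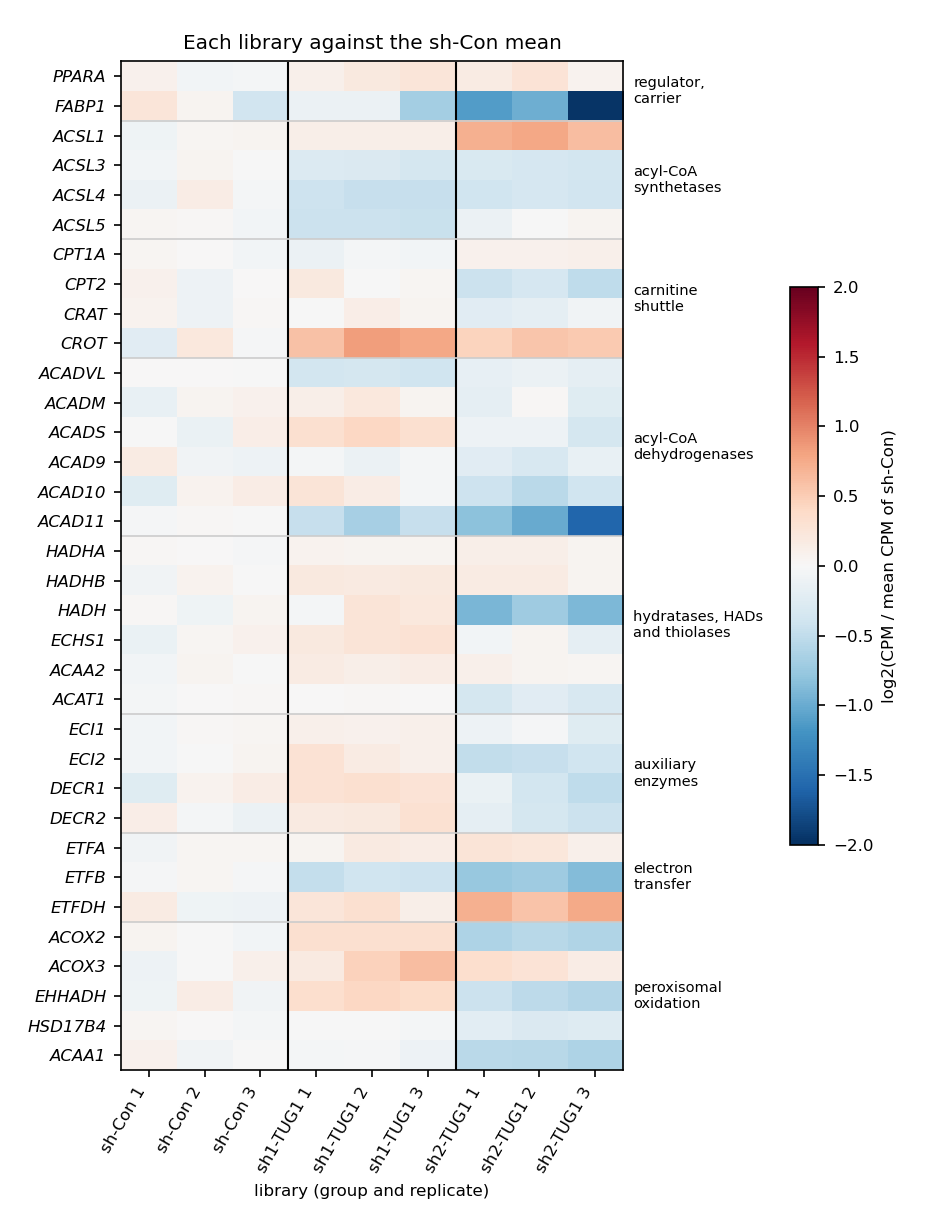
Each of the 9 libraries as the log2 of its CPM over the mean CPM of sh-Con, 1 row per gene and 1 column per library. The peroxisomal and auxiliary enzyme rows are mostly red in sh1-*TUG1* and blue in sh2-*TUG1*, and the darkest cell is *FABP1* in sh2-*TUG1* replicate 3, at 58.5 CPM.

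*PPARA* encodes the receptor PPARα, which pairs with RXR on direct-repeat elements. Its level was 63.3, 57.7 and 58.5 CPM in the sh-Con libraries, 63.8, 68.7 and 70.6 in sh1-*TUG1* and 67.2, 72.1 and 62.9 in sh2-*TUG1*. The sh1-*TUG1* libraries sat just above the highest control, and those of sh2-*TUG1* overlapped the controls. Neither difference passed the test, with log2 fold changes of 0.18 ± 0.061 (SE, adjusted p = 0.0582) and 0.17 ± 0.067 (adjusted p = 0.0652), and the lines differed from each other by −0.0071 (adjusted p = 0.941). In sh1-*TUG1* it was called higher with DESeq2, with library totals alone and without sh-Con replicate 1. In sh2-*TUG1* it was called higher in 1 fit of all 9 libraries and without sh-Con replicate 1 or sh2-*TUG1* replicate 3.

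*FABP1* (ENSG00000163586, chr2:88122982-88128116, minus strand) encodes the liver fatty acid-binding protein, the main cytosolic fatty acid carrier of hepatocytes. It was at 272, 239 and 176 CPM in sh-Con, 210.1, 211 and 143 in sh1-*TUG1* and 106, 117 and 58.5 in sh2-*TUG1*. All libraries of sh2-*TUG1* were below every other library, sh1-*TUG1* overlapped sh-Con, and replicate 3 was the lowest in each group. In sh2-*TUG1* the transcript was at 0.409 of the control level (log2 −1.29 ± 0.23, adjusted p = 0.00177), and in sh1-*TUG1* at 0.820 (log2 −0.29 ± 0.17, adjusted p = 0.253). The lines differed by −1.004 ± 0.23 on the log2 scale (adjusted p = 0.00492).

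Promoter windows were searched for 2 motifs tied to this pathway, in RefSeq sequence (GRCh38.p14) from 250 bases before to 50 after each gene start, which was at hand for 27 of the set's genes in 39 windows. The element of PPAR and RXR, AGGTCA repeated with 1 free base between the copies, was allowed 2 mismatches on either strand and was found in 3 of these 39 windows, those of *FABP1*, *ACSL1* and *ACAA2*, and in 2.97% of all 35116 windows. The site of the estrogen-related receptors, TCAAGGTCA with no mismatch, was in 0 of the 39 and in 0.353% of all. The matches are shown because the genes that hold the repeat moved differently, with *FABP1* lower and *ACSL1* higher in sh2-*TUG1* and *ACAA2* not called. Distances count from the gene start that each window was built on, 250 bases into it, and some genes have more than 1 window. The start used for *FABP1* lies inside its annotated span, chr2:88122982-88128116, so its match is closer to the outermost start than the distance shown. The *ACSL1* match lies inside the annotated span of the gene, chr4:184755595-184826818, upstream of an internal start and not of the outermost one. That of *ACAA2* also lies inside its span, chr18:49782167-49813960. Each line below reads 5′ to 3′ on the strand of the gene, with the matched bases in capitals.
*FABP1*, chr2:88128111-88128137, minus strand, match on the opposite strand, 68 to 56 bases upstream: cagctgcTGACCTCTGGCCGctattcg
*ACSL1*, chr4:184805648-184805674, minus strand, match on the opposite strand, 114 to 102 bases upstream: cggcatgTGACTTGTGCCCTgagagac
*ACAA2*, chr18:49813590-49813616, minus strand, match on the same strand, 76 to 64 bases upstream: aggaagtAGGTGAAAGGGCAggggcgt
A match of letters is a description of these windows, and binding was not measured.

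The 4 long-chain acyl-CoA synthetases, which activate fatty acids for every later use, did not move together. In sh1-*TUG1* 3 fell and none rose, and in sh2-*TUG1* 1 rose and 2 fell. That is 75% called in each line, beside 24.8% and 43.5% of all genes. *ACSL1* (ENSG00000151726, chr4:184755595-184826818, minus strand), the form most tied to oxidation in liver and muscle, was at 156, 170.1 and 172 CPM in sh-Con, 181, 181 and 181 in sh1-*TUG1* and 272, 284 and 255 in sh2-*TUG1*. The groups did not overlap and sh2-*TUG1* stood highest. Against sh-Con it was 1.63-fold in sh2-*TUG1* (log2 0.70 ± 0.058, adjusted p = 1.82e-05) and 1.09-fold in sh1-*TUG1* (log2 0.12 ± 0.049, adjusted p = 0.0989), and the lines differed by 0.58 ± 0.050 (adjusted p = 3.92e-06).

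*ACSL3*, found on the endoplasmic reticulum and lipid droplets, was at 896, 967 and 920.0 CPM in sh-Con, 766, 758 and 728 in sh1-*TUG1* and 750.2, 731 and 722 in sh2-*TUG1*. Every knockdown library was below every control. The log2 fold changes were −0.31 ± 0.043 (adjusted p = 0.000814) in sh1-*TUG1* and −0.34 ± 0.045 (adjusted p = 0.000318) in sh2-*TUG1*. *ACSL4*, which prefers polyunsaturated chains such as arachidonate, was at 412, 498 and 437 CPM in sh-Con, 337, 327 and 326 in sh1-*TUG1* and 342, 356 and 344 in sh2-*TUG1*. Here too each knockdown library lay under the lowest control. Its log2 fold changes were −0.45 ± 0.064 (adjusted p = 0.000985) and −0.37 ± 0.067 (adjusted p = 0.00180), and the difference between the lines, 0.074, did not pass the test (adjusted p = 0.334). *ACSL5*, a synthetase of mitochondria and endoplasmic reticulum, fell in sh1-*TUG1* (log2 −0.43 ± 0.041, adjusted p = 9.14e-05), was at −0.024 in sh2-*TUG1* (adjusted p = 0.755), and differed between the lines (0.41 ± 0.048, adjusted p = 3.94e-05).

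Levels of different genes were compared per kb of merged exons, a length that counts every annotated exon and so understates genes with long alternative exons. On this scale the sum of the 4 synthetases was made up in sh-Con of 45.7% *ACSL3*, 24.9% *ACSL4*, 19.9% *ACSL5* and 9.42% ± 0.410 (SD, n = 3) *ACSL1*. The *ACSL1* share was 12.8% ± 0.207 in the sh1-*TUG1* libraries and 17.0% ± 0.730 in those of sh2-*TUG1*, with no overlap between the groups, and the *ACSL3* share was 46.0% and 40.0%. For each of the 3 comparisons of the *ACSL1* share the exact two-sided permutation test gave p = 0.1, the smallest that 3 against 3 libraries allow, and 0.12 after adjustment over 18 tests of such ratios.

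**Figure D3:**
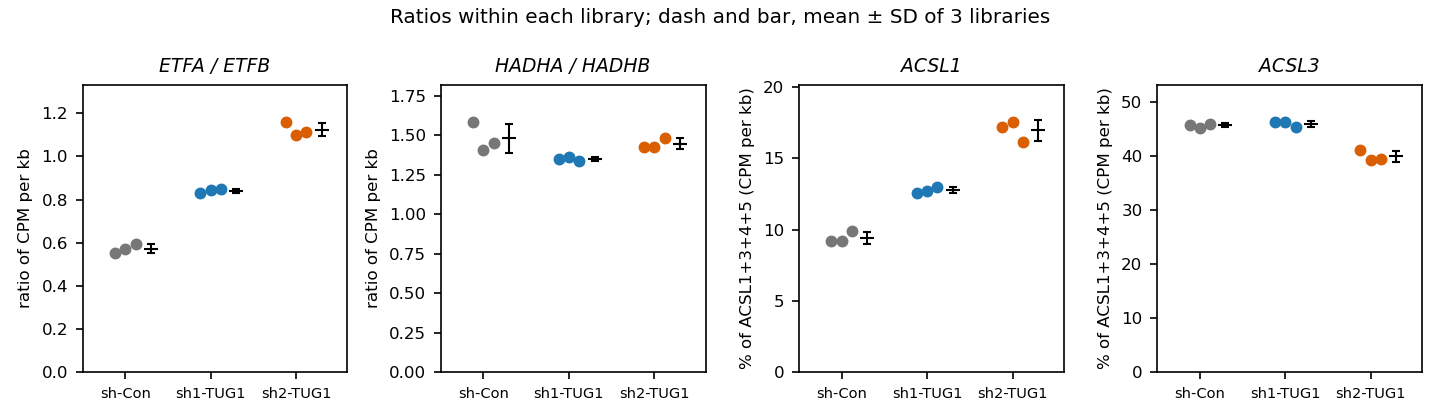
Ratios within each library, from CPM per kb of exon, with 1 point per library and the mean ± SD of 3 at the right of each group. The *ETFA* to *ETFB* ratio and the *ACSL1* share of the 4 synthetases are lowest in sh-Con, higher in sh1-*TUG1* and highest in sh2-*TUG1* with no overlap, while the *HADHA* to *HADHB* ratio stays between 1.34 and 1.58.

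The carnitine shuttle showed 1 rise and no fall among its 4 genes in sh1-*TUG1*, and 1 rise and 1 fall in sh2-*TUG1*. These shares called, 25% and 50%, are near the 24.8% and 43.5% of all genes. *CPT1A*, the outer-membrane carnitine palmitoyltransferase that malonyl-CoA inhibits and that sets the pace of long-chain oxidation, was at 55.4, 54.5 and 51.8 CPM in sh-Con, 49.8, 52.6 and 51.6 in sh1-*TUG1* and 57.3, 57.1 and 57.9 in sh2-*TUG1*. Libraries of sh2-*TUG1* were all above the others by a small step, and those of sh1-*TUG1* overlapped the controls. Neither line passed the test against sh-Con (log2 −0.071 ± 0.053, adjusted p = 0.366, and 0.090 ± 0.053, adjusted p = 0.197). Between the lines *CPT1A* was higher in sh2-*TUG1* by 0.16 ± 0.048 (adjusted p = 0.0177), a call lost with library totals alone as the scaling and without sh1-*TUG1* replicate 1.

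*CPT2*, the inner-membrane partner that returns the chain to coenzyme A, was at 25.4, 22.3 and 24.03 CPM in sh-Con, 27.4, 23.8 and 24.5 in sh1-*TUG1* and 17.8, 19.04 and 16.8 in sh2-*TUG1*. Only sh2-*TUG1* lay apart, below all other libraries. It fell there (log2 −0.42 ± 0.080, adjusted p = 0.00228), was at 0.076 ± 0.078 in sh1-*TUG1* (adjusted p = 0.522), and differed between the lines by −0.50 ± 0.079 (adjusted p = 0.000396).

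*CROT* (ENSG00000005469, chr7:87345681-87399795, plus strand), the peroxisomal carnitine octanoyltransferase that prepares shortened chains for export to mitochondria, was at 5.13, 6.92 and 5.89 CPM in sh-Con, 8.93, 10.7 and 10.2 in sh1-*TUG1* and 8.15, 8.77 and 8.58 in sh2-*TUG1*. Both knockdown groups were above all controls. It rose 1.66-fold in sh1-*TUG1* (log2 0.73 ± 0.14, adjusted p = 0.00518) and 1.42-fold in sh2-*TUG1* (log2 0.50 ± 0.14, adjusted p = 0.0167), the latter call lost without sh2-*TUG1* replicate 2 (adjusted p = 0.054). *CRAT*, the carnitine acetyltransferase, was not called against sh-Con (log2 0.057, adjusted p = 0.547, and −0.16, adjusted p = 0.0727) and between the lines was lower in sh2-*TUG1* (−0.22 ± 0.062, adjusted p = 0.0148).

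The acyl-CoA dehydrogenases are a family that includes the enzymes of the first step of the mitochondrial cycle. Among the 6 in the set, 1 rose and 2 fell in sh1-*TUG1*, and 3 fell and none rose in sh2-*TUG1*. Called were 50% in each line, beside 24.8% and 43.5% of all genes. *ACAD11* (ENSG00000240303, chr3:132558138-132660723, minus strand), a less studied member that acts on hydroxylated acids, was at 69.3, 72.03 and 70.3 CPM in sh-Con, 51.1, 44.4 and 51.1 in sh1-*TUG1* and 40.1, 34.99 and 23.6 in sh2-*TUG1*. The groups did not overlap, and sh2-*TUG1* replicate 3 was the lowest library. It fell in sh1-*TUG1* (log2 −0.53 ± 0.065, adjusted p = 0.000411) and to 0.464 of control in sh2-*TUG1* (log2 −1.11 ± 0.15, adjusted p = 0.000394).

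The dehydrogenases of the main chain lengths took different courses. *ACADVL*, for very long chains, was at 201 ± 1.32 (SD, n = 3) CPM in sh-Con, 156 ± 2.51 in sh1-*TUG1* and 181 ± 3.90 in sh2-*TUG1*. It fell in both lines, with log2 fold changes of −0.37 ± 0.039 (adjusted p = 0.000169) and −0.16 ± 0.043 (adjusted p = 0.0149), the latter lost without sh2-*TUG1* replicate 1, and the level in sh2-*TUG1* was the higher of the lines (0.22 ± 0.037, adjusted p = 0.000702). *ACADM*, for medium chains and the gene of the most common inherited oxidation defect, was not called in either line (0.13, adjusted p = 0.233, and −0.13, adjusted p = 0.236). *ACADS*, for short chains, rose in sh1-*TUG1* (0.35 ± 0.079, adjusted p = 0.0103), was at −0.19 ± 0.097 in sh2-*TUG1* (adjusted p = 0.150), and between the lines was lower in the latter (−0.54 ± 0.085, adjusted p = 0.000404). *ACAD9*, which also assembles respiratory complex I, was not called in either line (−0.069, adjusted p = 0.591, and −0.23, adjusted p = 0.0616), and *ACAD10* was at 0.12 in sh1-*TUG1* (adjusted p = 0.488), fell in sh2-*TUG1* (−0.45 ± 0.12, adjusted p = 0.0107) and differed between the lines (−0.57 ± 0.11, adjusted p = 0.00163).

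The genes of the later mitochondrial steps, 6 hydratases, hydroxyacyl-CoA dehydrogenases and thiolases, gave 2 rises and no fall in sh1-*TUG1*, and 2 falls and no rise in sh2-*TUG1*. This makes 33.3% called in each line, beside 24.8% and 43.5% of all genes. *HADHA* and *HADHB* encode the subunits of the mitochondrial trifunctional protein and lie head to head on chromosome 2, at chr2:26190635-26244726 on the minus strand and chr2:26243170-26290468 on the plus strand. *HADHA* was at 325, 319 and 312 CPM in sh-Con, 334, 332 and 332 in sh1-*TUG1* and 346, 344 and 331 in sh2-*TUG1*. All knockdown libraries were above the highest control, but by little, and neither log2 fold change passed the test (0.061 ± 0.037, adjusted p = 0.274, and 0.092 ± 0.043, adjusted p = 0.110).

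*HADHB* was at 199.9, 221 and 209.9 CPM in sh-Con, 241, 238 and 242 in sh1-*TUG1* and 237, 235 and 217 in sh2-*TUG1*. The sh1-*TUG1* libraries were above all controls, and sh2-*TUG1* overlapped them. It rose in sh1-*TUG1* by 0.19 ± 0.047 (adjusted p = 0.0151), a call lost without any 1 of the sh1-*TUG1* libraries, and was at 0.12 ± 0.056 in sh2-*TUG1* (adjusted p = 0.0992). The ratio of *HADHA* to *HADHB* per kb was 1.48 ± 0.0918 (SD, n = 3) in sh-Con, 1.35 ± 0.0119 in sh1-*TUG1* and 1.45 ± 0.0340 in sh2-*TUG1*, with an exact permutation p of 0.1 and 0.7 for the lines against sh-Con.

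*HADH* (ENSG00000138796, chr4:107989714-108035175, plus strand), the hydroxyacyl-CoA dehydrogenase for short and medium chains, was at 16.96, 15.8 and 17.4 CPM in sh-Con, 16.3, 19.97 and 19.4 in sh1-*TUG1* and 8.86, 10.3 and 8.99 in sh2-*TUG1*. The sh2-*TUG1* libraries were far below the rest, and sh1-*TUG1* overlapped sh-Con. *HADH* fell to 0.559 of control in sh2-*TUG1* (log2 −0.84 ± 0.097, adjusted p = 0.000138), was at 0.15 ± 0.094 in sh1-*TUG1* (adjusted p = 0.287), and differed between the lines by −0.99 ± 0.099 (adjusted p = 1.43e-05). *ECHS1*, the short-chain enoyl-CoA hydratase, rose in sh1-*TUG1* (0.25 ± 0.064, adjusted p = 0.0186) and was at −0.063 in sh2-*TUG1* (adjusted p = 0.545), with the first call lost without sh1-*TUG1* replicate 2 or replicate 3. *ACAA2*, the mitochondrial acyl-CoA thiolase, was not called in either line (0.14, adjusted p = 0.0628, and 0.060, adjusted p = 0.374).

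*ACAT1* (ENSG00000075239, chr11:108121516-108147776, plus strand), the acetoacetyl-CoA thiolase that stands at the entry to ketone body synthesis and at the end of isoleucine breakdown, was at 74.3, 77.4 and 78.2 CPM in sh-Con, 76.9, 77.6 and 76.9 in sh1-*TUG1* and 59.9, 65.2 and 61.1 in sh2-*TUG1*. Its level in sh1-*TUG1* was within the range of the controls, and every sh2-*TUG1* library was lower. It fell in sh2-*TUG1* (log2 −0.31 ± 0.056, adjusted p = 0.00199), and in sh1-*TUG1* the difference was 0.0085 ± 0.048 (adjusted p = 0.922).

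The 4 auxiliary enzymes, which move or remove double bonds so that unsaturated chains can enter the cycle, gave 3 rises and no fall in sh1-*TUG1*, and 3 falls and no rise in sh2-*TUG1*. The share called was 75% in each line, beside 24.8% and 43.5% of all genes. *ECI2*, an enoyl-CoA isomerase of peroxisomes and mitochondria, was at 79.4, 81.8 and 85.5 CPM in sh-Con, 101, 91.9 and 88.4 in sh1-*TUG1* and 58.3, 59.8 and 62.2 in sh2-*TUG1*. No group overlapped another. The log2 fold changes were 0.19 ± 0.061 (adjusted p = 0.0482) in sh1-*TUG1* and −0.46 ± 0.056 (adjusted p = 0.000191) in sh2-*TUG1*, and the lines differed by −0.64 ± 0.058 (adjusted p = 5.87e-06).

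*DECR1*, the mitochondrial dienoyl-CoA reductase, was at 25.2, 31.1 and 32.8 CPM in sh-Con, 36.4, 37.1 and 35.8 in sh1-*TUG1* and 27.01, 22.96 and 20.9 in sh2-*TUG1*. The sh1-*TUG1* libraries were above all controls, and the highest sh2-*TUG1* library was above the lowest control. It was changed by 0.29 ± 0.091 (adjusted p = 0.0417) in sh1-*TUG1* and −0.33 ± 0.12 (adjusted p = 0.0435) in sh2-*TUG1*, and by −0.63 ± 0.10 between the lines (adjusted p = 0.000536). *DECR2*, its peroxisomal counterpart, was changed by 0.23 ± 0.074 (adjusted p = 0.0498) and −0.32 ± 0.088 (adjusted p = 0.0147), and by −0.55 ± 0.081 between the lines (adjusted p = 0.000251). In sh1-*TUG1* the calls of *ECI2*, *DECR1* and *DECR2* were each lost when any 1 of the sh1-*TUG1* libraries was left out. In sh2-*TUG1* the call of *DECR1* was lost without sh-Con replicate 2 or 3 and without sh2-*TUG1* replicate 2 or 3 (adjusted p up to 0.146), that of *DECR2* without sh2-*TUG1* replicate 2 (adjusted p = 0.0517), and that of *ECI2* in no setting. Between the lines, all 3 calls held in every setting tried. *DECR2* shares 14.1% of its exon bases with *NME4* on the same strand. *ECI1*, the mitochondrial isomerase, was not called against sh-Con (0.091, adjusted p = 0.206, and −0.12, adjusted p = 0.172) and between the lines was lower in sh2-*TUG1* (−0.21, adjusted p = 0.0125).

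The electron transfer flavoprotein, a dimer of the *ETFA* and *ETFB* products, accepts electrons from the acyl-CoA dehydrogenases of the mitochondrial cycle. Its subunit transcripts moved apart. *ETFB* (ENSG00000105379, chr19:51345169-51366418, minus strand) was at 313, 326 and 311 CPM in sh-Con, 228, 241 and 238 in sh1-*TUG1* and 187, 193 and 174 in sh2-*TUG1*. The groups were fully separated, with sh2-*TUG1* lowest. The log2 fold changes were −0.43 ± 0.042 (adjusted p = 0.000115) and −0.78 ± 0.052 (adjusted p = 4.90e-06), and sh2-*TUG1* was below sh1-*TUG1* by −0.35 ± 0.046 (adjusted p = 0.000102). *ETFA* was at 133, 143 and 143 CPM in sh-Con, 146, 157 and 155 in sh1-*TUG1* and 167, 164 and 149 in sh2-*TUG1*. Both knockdown groups were above the controls and overlapped each other. It rose in sh2-*TUG1* (0.19 ± 0.058, adjusted p = 0.0233), a call lost with library totals alone and without sh2-*TUG1* replicate 1 or replicate 2, and was at 0.13 ± 0.051 in sh1-*TUG1* (adjusted p = 0.0958).

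The ratio of *ETFA* to *ETFB* per kb, which does not depend on scaling between libraries, was 0.572 ± 0.0213 (SD, n = 3) in sh-Con, 0.841 ± 0.0106 in sh1-*TUG1* and 1.12 ± 0.0308 in sh2-*TUG1*. No 2 groups overlapped, and each exact permutation p was 0.1, the smallest possible. *ETFDH*, the membrane dehydrogenase that passes the electrons to ubiquinone, was at 19.6, 16.6 and 16.4 CPM in sh-Con, 20.7, 21.8 and 19.1 in sh1-*TUG1* and 28.6, 25.9 and 29.5 in sh2-*TUG1*. The libraries of sh2-*TUG1* were above all others, and sh1-*TUG1* overlapped sh-Con. It rose 1.60-fold in sh2-*TUG1* (log2 0.67 ± 0.089, adjusted p = 0.000293) and was at 0.23 ± 0.091 in sh1-*TUG1* (adjusted p = 0.0987). *ETFDH* overlaps exons of *PPID* on the other strand over 10.9% of its exon bases, and whether the counting used strand is not given in the sources used here.

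Of the 5 peroxisomal oxidation genes, 3 rose and none fell in sh1-*TUG1*, and 4 fell and none rose in sh2-*TUG1*. These are 60% and 80% called, beside 24.8% and 43.5% of all genes. *ACOX2* (ENSG00000168306, chr3:58505136-58537319, minus strand), the oxidase for branched chains and bile acid intermediates, was at 36.5, 35.04 and 33.8 CPM in sh-Con, 43.9, 43.7 and 43.99 in sh1-*TUG1* and 22.9, 23.8 and 23.1 in sh2-*TUG1*. The control libraries lay between the lines, without overlap. It rose 1.25-fold in sh1-*TUG1* (log2 0.32 ± 0.053, adjusted p = 0.00219) and fell to 0.662 of control in sh2-*TUG1* (log2 −0.60 ± 0.060, adjusted p = 5.89e-05). The difference between the lines, −0.91 ± 0.051, had the smallest adjusted p of the set (2.86e-07).

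*EHHADH* (ENSG00000113790, chr3:185190624-185281990, minus strand), the peroxisomal bifunctional enzyme and a classical PPARα target, was at 25.3, 29.9 and 25.5 CPM in sh-Con, 33.8, 35.7 and 34.8 in sh1-*TUG1* and 20.1, 18.7 and 17.9 in sh2-*TUG1*. As for *ACOX2*, the controls lay between the lines. The log2 fold changes were 0.37 ± 0.075 (adjusted p = 0.00646) in sh1-*TUG1* and −0.51 ± 0.086 (adjusted p = 0.00117) in sh2-*TUG1*, and the lines differed by −0.88 ± 0.075 (adjusted p = 3.92e-06). The calls of *ACOX2* and *EHHADH* held in all 3 comparisons under every setting tried.

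*HSD17B4*, the second peroxisomal bifunctional enzyme, fell in sh2-*TUG1* (log2 −0.26 ± 0.049, adjusted p = 0.00246) and was at −0.019 in sh1-*TUG1* (adjusted p = 0.794). *ACAA1*, the peroxisomal thiolase, was at 90.7 ± 4.98 (SD, n = 3) CPM in sh-Con, 87.4 ± 2.20 in sh1-*TUG1* and 60.98 ± 1.71 in sh2-*TUG1*. It fell in sh2-*TUG1* (log2 −0.57 ± 0.058, adjusted p = 5.85e-05), just short of a fold change of 1.5, and was at −0.054 in sh1-*TUG1* (adjusted p = 0.504). *ACOX3*, a further branched-chain oxidase, rose in sh1-*TUG1* (0.43 ± 0.12, adjusted p = 0.0258), a call lost without sh-Con replicate 1 or 2 and without sh1-*TUG1* replicate 2 or 3, and was at 0.25 ± 0.093 in sh2-*TUG1* (adjusted p = 0.0538).

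**Figure D4:**
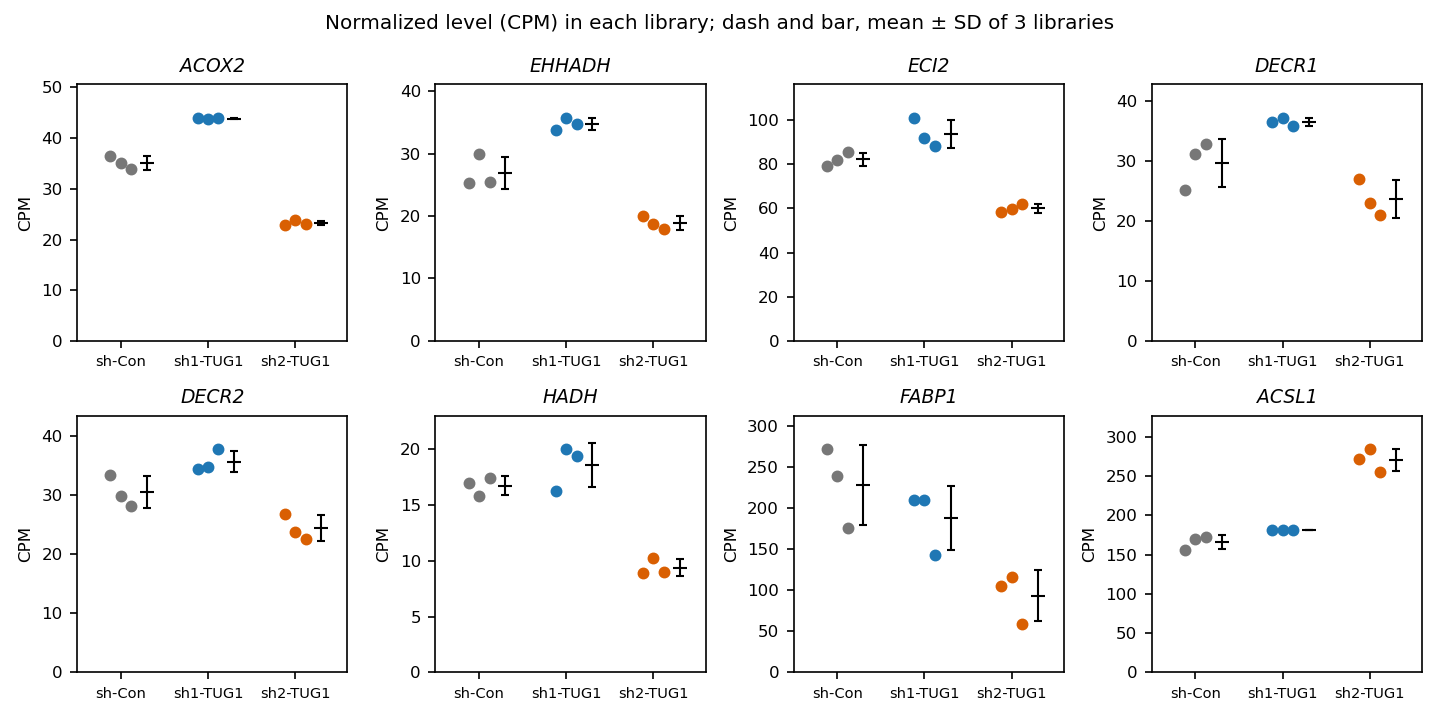
CPM in each library for 8 genes of the set, with the mean ± SD of the 3 libraries at the right of each group and axes that start at 0. *ACOX2*, *EHHADH*, *ECI2* and *DECR2* have sh1-*TUG1* above and sh2-*TUG1* below all controls, *HADH* and *FABP1* are low in sh2-*TUG1*, and *ACSL1* is high there.

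Per kb of merged exons, the genes of the set differed widely in level in the control cells. *ACSL3* was the highest at 128 ± 4.94 CPM per kb (SD, n = 3), followed by *FABP1* at 92.7 ± 19.8, *HADHA* at 72.6 ± 1.48 and *ACSL4* at 70.0 ± 6.84. The spread of *FABP1* reached down to *HADHA*, and *HADHA* and *ACSL4* overlapped. The lowest were *ACAD10* at 1.72 ± 0.232, *HADH* at 1.38 ± 0.0679 and *CROT* at 1.20 ± 0.181, of which *HADH* and *CROT* overlapped. The place of *HADH* depends on the length used, 12.1 kb of merged exons. Before division by length its sh-Con mean was 16.7 CPM, above the 5.98 CPM of *CROT*.

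Other ketone body genes were read outside the set. *BDH1*, which interconverts acetoacetate and hydroxybutyrate in mitochondria, was at 22.5, 21.4 and 18.03 CPM in sh-Con, 37.3, 39.6 and 35.9 in sh1-*TUG1* and 30.2, 29.96 and 32.01 in sh2-*TUG1*. All knockdown libraries were above the controls, with log2 fold changes of 0.87 ± 0.085 (adjusted p = 0.000109) and 0.57 ± 0.086 (adjusted p = 0.000619). *OXCT1*, which activates acetoacetate for use and is scarce in normal liver, was at 5.55, 5.85 and 4.90 CPM in sh-Con and 2.68, 2.33 and 3.24 in sh2-*TUG1*. It fell in sh2-*TUG1* (−0.98 ± 0.19, adjusted p = 0.00236) and was at −0.20 ± 0.16 in sh1-*TUG1* (adjusted p = 0.407). *BDH2* and *AACS* were not called in either line, with log2 fold changes of 0.21 and −0.15 in sh1-*TUG1* and of −0.28 and −0.057 in sh2-*TUG1*.

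A list of 59 further genes of the pathway, these ketone body genes included, showed counts of the same kind. In sh1-*TUG1* 12 of 51 tested rose and 7 fell (all genes, 12.5% and 12.3%), with a median log2 fold change of 0.083, and in sh2-*TUG1* 8 of 50 rose and 21 fell (all genes, 21.6% and 21.9%), with a median of −0.13. Between the lines 6 of 50 were higher and 26 lower in sh2-*TUG1* (all genes, 21.0% and 21.7%), with a median of −0.29. The falls in sh1-*TUG1* were near the share of all genes, and the rises in sh2-*TUG1* and between the lines under it. Among 12 other peroxisomal genes, 3 rose and 1 fell in sh1-*TUG1*, 0 rose and 8 fell in sh2-*TUG1*. Between the lines, 8 of these were lower in sh2-*TUG1* and 0 higher. *CAT*, the peroxisomal catalase, fell in sh2-*TUG1* (−0.62 ± 0.069, adjusted p = 0.000117) and was at 0.060 in sh1-*TUG1* (adjusted p = 0.564), and *PEX11A*, a factor of peroxisome division, fell there as well (−0.76 ± 0.15, adjusted p = 0.00299). *AMACR*, the racemase for branched-chain acyl-CoA, rose in sh1-*TUG1* (0.26 ± 0.067, adjusted p = 0.0210) and fell in sh2-*TUG1* (−0.36 ± 0.072, adjusted p = 0.00311).

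Uptake and activation genes of this list included *SLC27A2*, a very-long-chain acyl-CoA synthetase and transporter, which rose in sh1-*TUG1* (0.53 ± 0.058, adjusted p = 0.000199) and fell in sh2-*TUG1* (−0.49 ± 0.058, adjusted p = 0.000162). *SLC27A5*, the bile acyl-CoA synthetase, fell in sh2-*TUG1* (−0.87 ± 0.15, adjusted p = 0.00156), and so did *FABP5* (−0.92 ± 0.12, adjusted p = 0.000333). *ACSM3*, a medium-chain acyl-CoA synthetase, rose in both lines (0.92 ± 0.11, adjusted p = 0.000299, in sh1-*TUG1* and 0.57 ± 0.12, adjusted p = 0.00452, in sh2-*TUG1*). Of the regulators, the coactivator *PPARGC1A* rose in sh2-*TUG1* (0.66 ± 0.053, adjusted p = 1.40e-05). *PPARGC1B* and *SIRT3*, the main mitochondrial deacetylase, differed between the lines by −0.77 ± 0.27 (adjusted p = 0.0337) and −0.78 ± 0.080 (adjusted p = 1.70e-05). *PPARGC1B* was near the floor, with 16 to 48 counts per library.

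Known PPARα targets outside β-oxidation, on lipid droplets and in secretion among them, were also read. Of the 7 tested, 3 rose and 4 fell in sh1-*TUG1*, and 0 rose and 4 fell in sh2-*TUG1*. Between the lines, 5 were lower in sh2-*TUG1* and 1 higher. In either direction, 7, 4 and 6 of these 7 were called, where 24.8%, 43.5% and 42.7% of all genes were. *ANGPTL4*, an inhibitor of lipoprotein lipase, was at 9.73, 9.88 and 11.3 CPM in sh-Con, 6.68, 5.65 and 5.44 in sh1-*TUG1* and 2.49, 2.07 and 2.64 in sh2-*TUG1*. The groups did not overlap, and its log2 fold changes were −0.80 ± 0.13 (adjusted p = 0.00190) and −2.10 ± 0.15 (adjusted p = 8.49e-06). *PLIN2*, the main lipid droplet coat protein of hepatocytes, was at 735, 751 and 721 CPM in sh-Con, 416, 423 and 405 in sh1-*TUG1* and 803, 803 and 779.7 in sh2-*TUG1*. It fell in sh1-*TUG1* (−0.83 ± 0.038, adjusted p = 1.16e-06) and was at 0.11 ± 0.041 in sh2-*TUG1* (adjusted p = 0.0530). *VNN1* and *CIDEC* fell in both lines at an adjusted p under 0.05, from sh-Con means of 3.37 ± 0.369 and 5.92 ± 0.657 CPM (SD, n = 3). Their log2 fold changes were −0.74 ± 0.20 and −0.55 ± 0.15 in sh1-*TUG1* and −1.48 ± 0.29 and −1.60 ± 0.34 in sh2-*TUG1*. Counts in the sh2-*TUG1* libraries were low, at 44, 23 and 60 for *VNN1* and 59, 31 and 118 for *CIDEC*. *PLIN5* rose in sh1-*TUG1* (0.79 ± 0.22, adjusted p = 0.0288) and was at 0.34 ± 0.24 in sh2-*TUG1* (adjusted p = 0.267). Its counts were also low, at 51, 82 and 77 in the sh-Con libraries.

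For comparison, 12 mitochondrial genes with no part in fatty acid oxidation, such as the import receptor *TOMM20* and citrate synthase *CS*, gave 1 rise and 2 falls in sh1-*TUG1*, 2 rises and 4 falls in sh2-*TUG1*, and 2 higher and 3 lower between the lines. Their median log2 fold changes were −0.093, −0.062 and −0.013, and none passed a fold change of 1.5. The genes called came to 25%, 50% and 41.7% of the 12, close to the 24.8%, 43.5% and 42.7% of all genes.

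**Figure D5:**
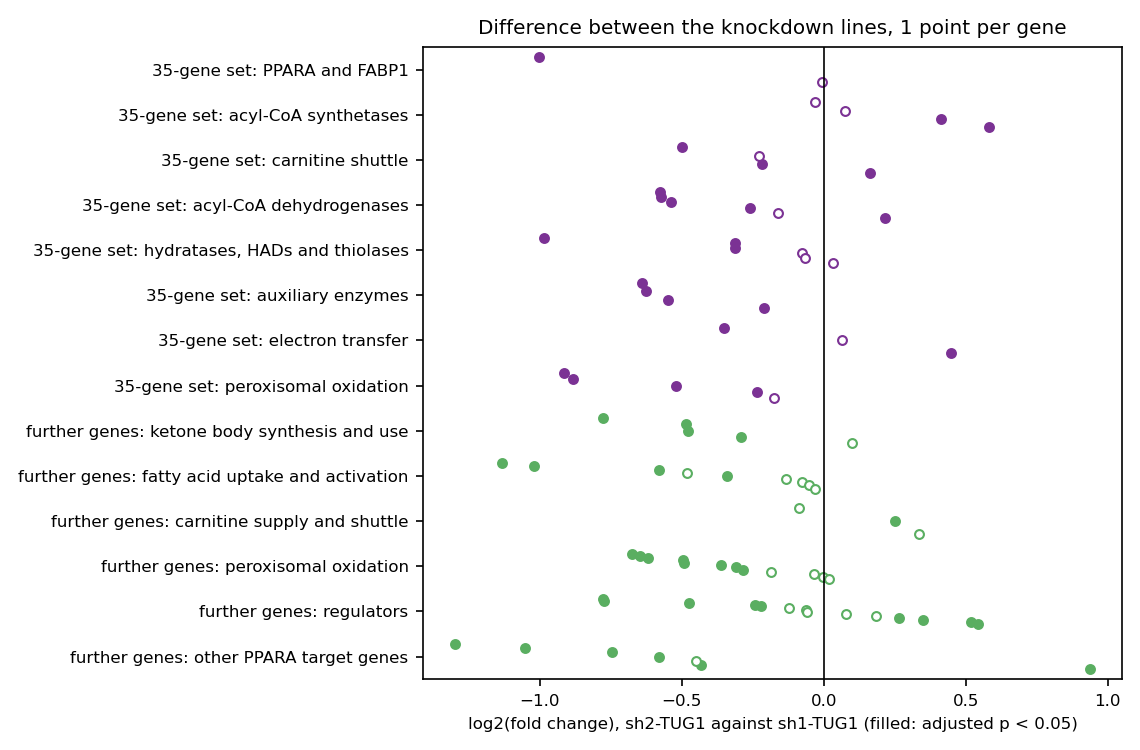
log2 fold change of sh2-*TUG1* against sh1-*TUG1* from the fit of all 9 libraries, 1 point per gene, for the roles of the 35-gene set (purple, 34 genes tested) and of the further pathway genes (green, 50 tested), filled where the adjusted p is under 0.05. The 4 auxiliary enzymes and the 5 peroxisomal genes of the set all lie left of 0, and 24 of the 34 purple points are filled, 19 of them left of 0. Of all 12854 genes, 42.7% were called.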

How the data were processed

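RNA from HepG2 cells of 3 groups was sequenced by a company for the authors, who deposited for each knockdown line a table with unnormalized read counts per gene in its 3 libraries and in the 3 shared sh-Con libraries. The same deposited tables hold FPKM values that the authors computed, here found to use the genomic span as gene length and not used, and a false discovery rate (an adjusted p-value) and a log2 fold change of the authors' own comparison, which were not used either. The submitters' processing notes name HISAT2, StringTie and GRCh38, with no versions given. The labels gave a sample for each column of counts.

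Each line was tested against sh-Con in its own table (13017 and 12953 genes) and the lines against each other in a fit of 9 libraries over the 12854 genes in both, with R 4.3.3 and edgeR 4.0.16 (TMM, glmQLFit, glmQLFTest, Benjamini–Hochberg over all genes tested). The filter filterByExpr removed 0 genes. A gene was called at an adjusted p under 0.05, and a fold change of 1.5 was set as in the study's methods. CPM values were scaled over all 9 libraries. Alternatives were RLE size factors, library totals, other filters, DESeq2 1.42.0, the replicate number as a block, 1 fit of 9 libraries, rows with a NewGene number left out, glmTreat, and each library left out in turn. The fits were first tested on simulated data. Within-library ratios used exact two-sided permutation tests. Positions and exon lengths are from GENCODE 29 (GRCh38), in which 16 genes of the set share exon bases with another protein-coding gene.

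The genes of the set and of the other lists were chosen with earlier results of these data known. Values in every library were given for genes past 1.5-fold in either line or between the lines, for genes called in both lines in the same direction by at least 0.3 in log2, and for *PPARA*, *CPT1A*, *CPT2*, *HADHA*, *HADHB*, *ACAT1* and *FABP1*. *ETFA* was added after its values were seen, beside *ETFB*. Of the other lists, genes past 1.5-fold and ketone body genes were named, and some items of the lists are not reported here.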

Additional observations from a re-analysis of the deposited data

Results flagged for a closer look

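In 24 of the 34 genes, the 2 hairpin lines differed from each other in a direct test over all 9 libraries (edgeR adjusted p under 0.05, log2 of sh2-*TUG1* over sh1-*TUG1* given below). By the same test, 42.7% of all 12854 genes differed. Groups of 3 libraries were not tested for outlying samples.

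Lower in sh2-*TUG1* by the most were *FABP1* at −1.004, *HADH* at −0.99, *ACOX2* at −0.91 and *EHHADH* at −0.88. The auxiliary enzymes stood at −0.64 for *ECI2*, −0.63 for *DECR1*, −0.55 for *DECR2* and −0.21 for *ECI1*. The other peroxisomal genes called stood at −0.52 for *ACAA1* and −0.24 for *HSD17B4*. Of the dehydrogenases, *ACAD11* was at −0.58, *ACAD10* at −0.57, *ACADS* at −0.54 and *ACADM* at −0.26. The remaining genes that were lower were *CPT2* at −0.50, *CRAT* at −0.22, *ECHS1* at −0.31, *ACAT1* at −0.31 and *ETFB* at −0.35.

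Higher in sh2-*TUG1* than in sh1-*TUG1* were *ACSL1* at 0.58, *ETFDH* at 0.45, *ACSL5* at 0.41, *ACADVL* at 0.22 and *CPT1A* at 0.16. The calls of *ACADM*, *CRAT* and *CPT1A* were lost in 1 or more of the settings tried, and the other 21 held in all of them.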

How the results depend on the processing

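No called change of the set turned its direction under any setting tried. The median log2 fold change of the set in sh1-*TUG1* was 0.15 with library totals alone, and between the lines the median was −0.30 and 10 genes were past 1.5-fold with that scaling. In 1 fit of all 9 libraries, 7 genes rose in sh2-*TUG1* against sh-Con. A test against a fold change of 1.5 itself (glmTreat) called 0 genes in sh1-*TUG1*, 3 in sh2-*TUG1* and 3 between the lines, while the count of *CROT* alone past 1.5-fold in sh1-*TUG1* rests on its estimate.

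Leaving out 1 library at a time, the rises in sh1-*TUG1* ranged from 4 to 10, the falls stayed at 6, the count past 1.5-fold at 1, and the median ran from 0.082 to 0.14. In sh2-*TUG1* the rises ranged from 2 to 6, the falls from 15 to 17, the count past 1.5-fold from 6 to 9 and the median from −0.25 to −0.20. Between the lines the higher genes ranged from 4 to 5, the lower from 17 to 20, those past 1.5-fold from 6 to 9 and the median from −0.27 to −0.22. Calls over all genes ran from 2036 to 3779 in sh1-*TUG1*, 4487 to 5708 in sh2-*TUG1* and 4394 to 6031 between the lines. With every library they were 3232, 5638 and 5488. Single calls were the same in all settings for 24 of 34 genes in sh1-*TUG1*, 23 in sh2-*TUG1* and 27 between the lines. In sh1-*TUG1* those of *DECR2*, *ECI2*, *DECR1*, *ACOX3*, *HADHB* and *ECHS1* were lost in some, and in sh2-*TUG1* those of *DECR1*, *ETFA*, *ACADVL*, *CROT* and *DECR2*. Calls were gained in 1 or more settings for 4 genes in sh1-*TUG1*, 6 in sh2-*TUG1* and 4 between the lines. The cause was not tested.

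Libraries with the same replicate number did not deviate together, with correlations of −0.33 to 0.011 over 11451 genes, so the number was not taken as a pairing. With the replicate number as a block, there were 8 rises and 7 falls in sh1-*TUG1*, 3 rises and 15 falls in sh2-*TUG1*, and 5 higher and 19 lower genes between the lines, with 1, 7 and 7 genes past 1.5-fold and medians of 0.12, −0.21 and −0.23. *FABP1* in sh1-*TUG1*, not called without the block, was called lower with it (log2 −0.29, adjusted p = 0.00540), and the calls of *ECI2* and *DECR2* in sh1-*TUG1* and of *ACADVL*, *DECR1* and *ETFA* in sh2-*TUG1* were lost. At this depth the genes of the set had at least 168 counts, and libraries of a group differed by more than counting error.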
